A study of Mus musculus with 2 samples.

Results

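The levels of 10 immediate early genes were read in mouse hippocampus at 10 days of age, from the strain B6CASTF1/J, a cross between the C57BL/6J and CAST/EiJ strains. The 10 genes, Fos, Fosb, Junb, Egr1, Egr2, Egr3, Arc, Npas4, Nr4a1 and Dusp1, were chosen by symbol, and all 10 were found among 55536 annotated genes. Total RNA was sequenced from 1 group with 2 biological replicates, each started from 300 ng of RNA and each labelled as 3 males, with no word on whether animals were pooled. The labels name no stimulus, no treatment and no handling before dissection. They also call the tissue a layer of hippocampus without naming the layer.

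Immediate early genes are switched on within minutes of neuronal firing or growth factor signals, without new protein synthesis, and their transcripts decay quickly. Calcium entry and the MAP kinase cascade activate CREB, which binds the cAMP response element, and serum response factor, which binds the CArG box. In the hippocampus, Fos, Arc, Egr1 and Npas4 RNA are widely used to mark recently active neurons. Most members encode transcription factors, Arc acts at the synapse, and Dusp1 encodes a phosphatase that switches MAP kinases off.

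At 10 days, 9 of the 10 transcripts were at a level of 1 or more in both libraries, and Fosb was so in 1 of them, with levels given per length as TPM, which scales each library to a fixed total. Egr3 was highest at 30.7 ± 2.24 TPM and Fosb lowest at 1.17 ± 0.382 TPM (SD, n = 2), a 26.2-fold span of levels. Between the libraries, Arc and Egr1 were higher in replicate 2 by the counting test, by 1.44-fold and 1.27-fold, and no member was lower. Under a test that allows for spread between replicates, Egr1 was not called, and Arc was called with 1 of 2 ways of setting that spread.

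The sequence at the members' starts shared 1 feature that was not used to choose them. RefSeq windows (GRCm38.p6) ending just before the start that RefSeq annotates were available for 7 members and were read for 250 bases each. Egr2 had 5 such windows, of which 1 was read. By GENCODE the windows of Fosb and Dusp1 ran 6 and 47 bases into the leading transcript and that of Npas4 lay wholly inside Npas4-201, with the window's last base 345 bases into it. The half-site of the cAMP response element, TGACG on either strand, was present in 7 of 7 windows, against 17.8% of all 32851 windows of that length. The full element, TGACGTCA, which reads the same on both strands and so holds the half-site on each, was present in 1 of the 7, that of Dusp1, against 1.55% of all windows. The CArG box was present in that of Egr2, against 1.47%, and TATAAA, searched on the coding strand, was present in that of Fos, against 7.59%. All windows were not matched to those of the members in base composition, and a match of letters is not a measured binding site. Windows of 3 members are shown because they end just before the first base of an annotated transcript of the gene and hold the CArG box, the TATAAA and the largest number of half-sites, with half-sites and the CArG box in capitals, 5′ to 3′ on the strand of the gene. The Fos window is chr12:85473640-85473889 (+), that of Egr2 chr10:67537619-67537868 (+) and that of Nr4a1 chr15:101266596-101266845 (+).
Fos promoter: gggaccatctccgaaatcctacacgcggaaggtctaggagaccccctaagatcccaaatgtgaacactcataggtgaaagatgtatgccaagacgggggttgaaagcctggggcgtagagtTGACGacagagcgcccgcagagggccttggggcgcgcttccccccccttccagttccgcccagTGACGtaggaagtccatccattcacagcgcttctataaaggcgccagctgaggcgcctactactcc
Egr2 promoter: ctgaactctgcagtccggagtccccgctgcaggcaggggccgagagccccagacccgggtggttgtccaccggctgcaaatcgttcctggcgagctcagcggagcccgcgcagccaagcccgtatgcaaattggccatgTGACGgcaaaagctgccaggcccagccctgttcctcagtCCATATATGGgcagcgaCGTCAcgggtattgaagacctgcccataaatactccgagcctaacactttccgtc
Nr4a1 promoter: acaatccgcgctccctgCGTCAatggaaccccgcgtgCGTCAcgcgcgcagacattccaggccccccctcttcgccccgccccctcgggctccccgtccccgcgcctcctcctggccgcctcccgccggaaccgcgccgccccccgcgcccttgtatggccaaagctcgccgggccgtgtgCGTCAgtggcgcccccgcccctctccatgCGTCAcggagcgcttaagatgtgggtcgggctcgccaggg
The Fos window held 2 half-sites, starting at -129 and -66 from the start, and a TATAAA at -33. In Egr2 the CArG box, at -72, stood between half-sites at -111 and -55. Nr4a1 had 4 half-sites, at -233, -213, -69 and -40, the most of the 7. Of the windows not printed, Npas4 and Dusp1 held 2 and 3 matches, and Fosb and Junb held 1 each. In Dusp1, 2 of the 3 matches, at -143 and -140, were the strands of the full element.

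Before the levels are read, 2 facts of the libraries matter. The depth was 32035705 expected counts in replicate 1 and 29747193 in replicate 2. Xist, the RNA of the inactive X chromosome, had 25 and 30841 counts, and the Y-linked gene Ddx3y had 2164 and 0, so replicate 2 goes against its label and "replicate 2" below stands for the library labelled male, replicate 2. Markers of excitatory neurons summed to 1495 and 1633 TPM and those of dentate granule cells to 102 and 107 TPM, with none at 0. Sums for interneurons (422 and 415 TPM), endothelium (81.0 and 82.9 TPM), mural cells (73.1 and 74.6 TPM) and astrocytes (1217 and 1301 TPM) were likewise near each other. Microglia markers summed to 86.0 and 100.1 TPM, with each of the 6 higher in replicate 2. Those of 4 other lists were further apart still. The 7 choroid plexus markers summed to 13.1 and 356 TPM, the 7 myelin markers to 205 and 350 TPM, the 5 red blood cell markers to 958 and 566 TPM and the 6 meningeal markers to 516 and 235 TPM. Single genes made up most of 2 of these gaps, Ttr with 8.02 and 340.07 TPM among the choroid plexus markers and Ptgds with 332.9 and 85.14 TPM among the meningeal ones, of which Dcn had 28.78 and 28.62 TPM.

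Of the AP-1 subunits, proteins that pair through leucine zippers to bind DNA, Junb was the most abundant of the 3 members. Junb (mm10, chr8:84974484-84978718, minus strand) had 560 and 600 counts in replicates 1 and 2, or 15.10 and 17.42 TPM. Fos (chr12:85473890-85477273, plus strand), the subunit most used as an activity marker, had 144 and 166 counts, or 4.17 and 4.66 TPM. Fosb (chr7:19302696-19310051, minus strand) had 67 and 84 counts, or 0.90 and 1.44 TPM. Replicate 2 had the higher level in each of these 3 genes, and the libraries of each stayed clear of the next gene in the order. Their counting intervals were wide at this depth. The 95% Poisson interval of Fosb ran from 0.697 to 1.14 TPM in replicate 1 and from 1.15 to 1.78 TPM in replicate 2.

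Fos and Fosb stood below Fosl2, and Junb below Jund and Jun, in both libraries. Fosl2 had 24.42 and 23.17 TPM and took 82.7% and 79.2% of the summed TPM of the 4 Fos family genes, where Fos took 14.1% and 15.9%. Fosl1 had 1 and 0 counts. Among the Jun genes, Jund had 74.61 and 78.54 TPM, Jun 32.26 and 33.60 TPM, and Junb 12.4% and 13.4% of the family's TPM. In both libraries, then, Fos, Fosb and Junb were minor shares of their families.

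**Figure D1:**
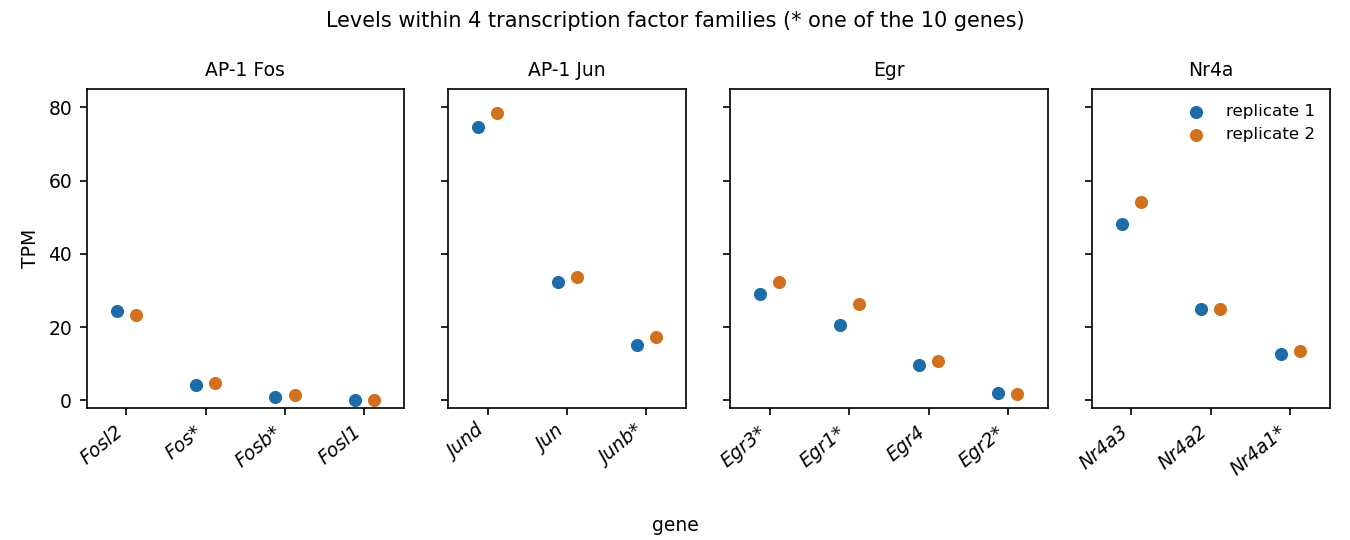
TPM (vertical axis) of each gene (horizontal axis) in the Fos, Jun, Egr and Nr4a families, with 1 point per library and an asterisk on the 10 genes described here. Fosl2, Jund and Nr4a3 are the highest of their families and are not among the 10, while Egr3 and Egr1 lead the Egr family.

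The zinc finger factors of the Egr family gave the opposite picture, with members at the top. Egr3, which is known for its part in muscle spindle development and in memory, had 2066 and 2077 counts, or 29.10 and 32.27 TPM (chr14:70077203-70082614, plus strand). Egr1, also called Zif268, had 1394 and 1639 counts, or 20.48 and 26.20 TPM (chr18:34859823-34864984, plus strand). Egr2, also called Krox20 and known for its need in myelination by Schwann cells, had 87 and 62 counts, or 1.89 and 1.79 TPM (chr10:67535475-67542188, plus strand). Egr3 and Egr1 together with the non-member Egr4 (9.54 and 10.69 TPM) held nearly all of the family's TPM, and Egr2 held 3.10% and 2.52%. The corepressors that bind Egr proteins were at similar levels to each other. Nab2 had 16.21 and 17.20 TPM and Nab1 14 and 13.32 TPM.

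Nr4a1, an orphan nuclear receptor also called Nur77, had 607 and 591 counts, or 12.73 and 13.56 TPM (chr15:101254269-101274795, plus strand). It was the lowest of its family of 3, with 14.9% and 14.6% of the summed TPM. Nr4a3 had 48.09 and 54.28 TPM and Nr4a2 24.86 and 24.93 TPM. Npas4, a helix-loop-helix factor that shapes inhibitory synapses and responds to calcium entry in neurons, had 143 and 162 counts, or 2.14 and 2.38 TPM (chr19:4984355-4990316, minus strand).

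Arc and Dusp1 are the members that do not encode transcription factors. Arc, which promotes removal of AMPA receptors from the synapse, had 646 and 860 counts, or 10.08 and 14.45 TPM (chr15:74669083-74672570, minus strand). Its libraries were further apart than those of Dusp1, which had 262 and 235 counts, or 6.88 and 6.63 TPM (chr17:26505590-26562128, minus strand). Other phosphatases of the Dusp1 kind were both above and below it. Dusp6, which acts on ERK in the cytosol, had 29.04 and 37.96 TPM, Dusp4 10.57 and 11.75 TPM, and Dusp5 4.53 and 3.91 TPM.

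In order of mean TPM the members were Egr3 (30.7 ± 2.24), Egr1 (23.3 ± 4.04), Junb (16.3 ± 1.64), Nr4a1 (13.1 ± 0.587), Arc (12.3 ± 3.09), Dusp1 (6.76 ± 0.177), Fos (4.42 ± 0.346), Npas4 (2.26 ± 0.170), Egr2 (1.84 ± 0.0707) and Fosb (1.17 ± 0.382), each in TPM with SD and n = 2. The 2 libraries gave the same order except that Nr4a1 stood above Arc in replicate 1 and below it in replicate 2. Nr4a1 and Arc were the 1 pair of neighbours whose library ranges overlapped, and their means differed by a ratio of 1.07. Counting intervals also overlapped between Npas4 and Egr2 in both libraries and between Egr2 and Fosb in replicate 2, so the order of these low genes is not resolved at this depth. The first 5 genes held 84.6% of the members' summed TPM in replicate 1 and 86.0% in replicate 2. That sum was 103 TPM in replicate 1 and 121 TPM in replicate 2.

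Set against all 22028 protein-coding genes, detected or not, the members spread over the middle and upper part of the range. Of these genes 13075 were detected at 1 TPM or more in both libraries, so the percentages also count genes under that level. Egr3 was above 82.9% of all 22028, Egr1 above 77.9% and Junb above 71.0%. Fos, at 51.3%, was near the middle of all coding genes, while Npas4, Egr2 and Fosb were above 45.2%, 43.5% and 40.6%. The members' median was 8.48 and 10.1 TPM, below the median of 15.7 TPM over the 13075 coding genes detected at 1 TPM or more in both libraries. By mean TPM, Egr3, Egr1 and Junb were above that median and the other members were below it. The genes nearest in level to Egr3 over the 2 libraries, by distance in log2 TPM, were 0610037L13Rik (29.22 and 32.35 TPM) and Myh9 (29.23 and 32.15 TPM). Those nearest to Fosb were Fam216b (0.90 and 1.44 TPM) and Mmp11 (0.91 and 1.49 TPM). All TPM here are as deposited, where nuclear protein-coding genes hold 462178 and 461143 TPM of the total. Scaling to nuclear protein-coding genes alone raised the median of the members' mean TPM from 9.51 to 20.6.

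**Figure D2:**
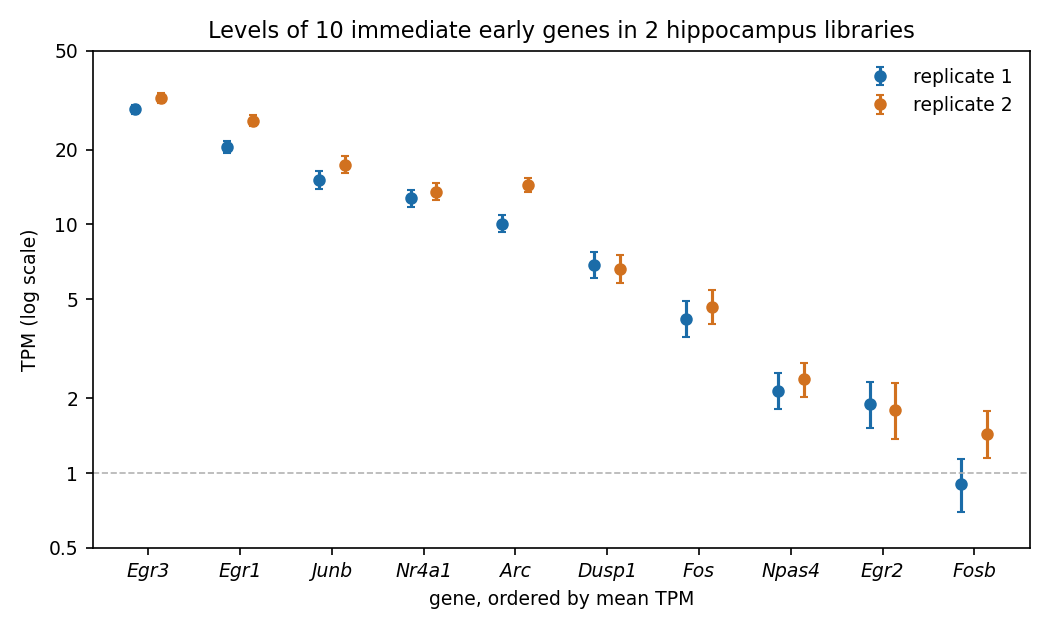
TPM on a log axis (vertical) of the 10 genes ordered by mean TPM (horizontal), with 1 point per library, bars for the 95% Poisson counting interval and a dashed line at 1 TPM. Egr3 is highest at 29.10 and 32.27 TPM, and Fosb in replicate 1, at 0.90 TPM, is the only point under the line.

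The second quantification, made from the FASTQ file and not from alignments, gave higher TPM for each member in each library except Egr2 in replicate 2. Its median log2 ratio to the alignment-based TPM over the members was 0.52 and 0.51 in the 2 libraries (pseudocount 0.1), against 0.60 and 0.60 over 15078 genes. Egr3 had 45.7 and 51.4 TPM, Egr1 30.8 and 40.1 TPM, and Arc 14.1 and 20.1 TPM by this route. The order by mean TPM was the same except that Arc passed Nr4a1, which had 17.0 TPM in each library. Egr2 was the least steady member, with 3.13 TPM in replicate 1 and 1.67 TPM in replicate 2, which put it above Npas4 in the first and last in the other.

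The difference between the libraries was tested with a two-sided exact binomial test on counts, which compares the reads of 2 libraries and not conditions. At an adjusted p under 0.05 (Benjamini-Hochberg over 18512 genes), 2 of 10 members were higher in replicate 2 and 0 were lower, and 4 had an unadjusted p under 0.05. Over all genes tested, 4.69% were called higher and 4.08% lower. With edgeR's exact test and a dispersion common to all genes, 0 of 10 members were called, with 2 at an unadjusted p under 0.05, against 0.967% of all genes. With the trended dispersion, 1 of 10 was called, against 0.897%. By sign alone, 8 members were higher and 2 lower in replicate 2, where 49.9% of all genes were higher. The median log2 ratio was 0.25 over the members and -0.00062 over all genes tested. In absolute terms it was 0.30 over the members and 0.10 over all genes, whose counts are not matched to theirs.

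Arc differed most among the members called, at a log2 ratio of 0.53 and a fold of 1.44 (95% counting interval 1.3 to 1.6). Its adjusted p was 1.72e-10 by the exact binomial test, 0.0150 by edgeR's exact test with the trended dispersion and 0.0911 with the common one. Egr1 differed by 0.35 on the log2 scale, 1.27-fold (1.18 to 1.37). The adjusted p of Egr1 was 3.06e-09 by the exact binomial test, 0.0817 with edgeR's trended dispersion and 0.759 with its common one. Thus the calls for these 2 genes rested on how much spread between libraries was allowed. By the FASTQ route the log2 ratios were close to these, at 0.52 for Arc and 0.37 for Egr1.

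The other 8 members were not called. Egr3 and Junb had log2 ratios of 0.12 and 0.21, with adjusted p of 0.0741 and 0.107 by the exact binomial test. Fos, Npas4 and Fosb had larger ratios on fewer counts, 0.32, 0.29 and 0.44. The fold of Fosb had an interval of 0.972 to 1.90 and that of Fos one of 0.991 to 1.57, so both include a ratio of 1. On the TPM scale the log2 ratio of Fosb was 0.68 against 0.44 on counts. TPM also divides by a length that follows how reads were assigned to isoforms, and the TPM intervals of Fosb given above cover counting error alone. Nr4a1 was at 0.07 and Dusp1 at -0.04, the latter turning to 0.04 by the FASTQ route. Egr2 had the lowest log2 ratio, -0.37, with an interval of its fold from 0.547 to 1.08. Beside these differences, 6 of 7 choroid plexus and 7 of 7 myelin markers were called higher in replicate 2, and 5 of 5 red blood cell and 4 of 6 meningeal markers lower. With edgeR's common dispersion these counts were 6, 5, 4 and 1, and 0 in the other marker lists. By the exact binomial test those had 3 of 6 higher for microglia, 2 of 5 for dentate granule cells, 2 of 6 for excitatory neurons and 1 of 6 for endothelium. Astrocytes had 3 of 6 higher and 1 lower, and interneurons and mural cells had 0 called. Over all genes, 4.69% were called higher and 4.08% lower by that test, and 0.967% either way with the common dispersion. The part of these cell types in the members' differences was not tested. In bulk tissue, more cells with a transcript and more of it per cell cannot be told apart. The libraries also differed in Xist (25 and 30841 counts) and Ddx3y (2164 and 0 counts). With 1 library of each kind, a difference in sex cannot be told apart from any other difference between the replicates, and its part was not tested.

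**Figure D3:**
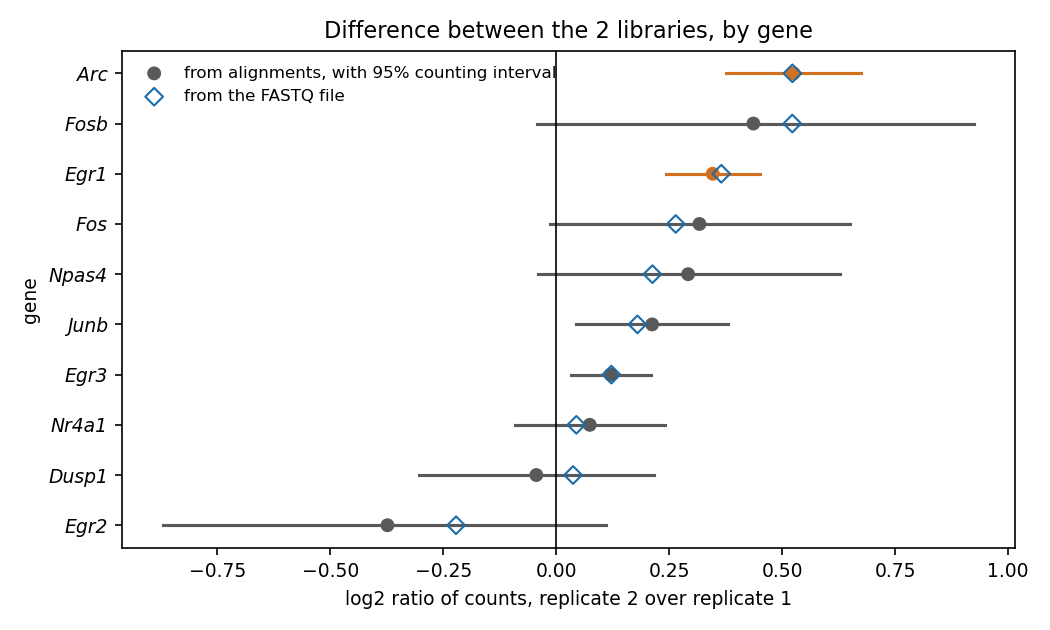
Log2 ratio of counts, replicate 2 over replicate 1 (horizontal axis), for the 10 genes (vertical axis), with circles from alignments, bars for their 95% counting interval, orange for the genes called by the exact binomial test, and open diamonds from the FASTQ file. Arc (0.53) and Egr1 (0.35) are the genes called, and Dusp1 is the gene whose circle and diamond fall on either side of 0.

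Genes that act with the members were read from 7 lists. Over all genes tested, 4.69% were called higher and 4.08% lower by the exact binomial test, and 0.967% either way with edgeR's common dispersion. The lists were not matched to all genes in counts, and higher counts let smaller differences be called. Of 8 other AP-1 genes, 5 had enough counts to test and 0 were called, with a median log2 ratio of 0.05. Of 19 other early transcription regulators, 4 were higher and 2 lower in replicate 2. Nr4a3, the highest of them, was higher (log2 ratio 0.16, adjusted p 2.62e-07), as were Klf10 (0.33, 0.000289) and Ier5 (0.44, 1.51e-05), while the circadian regulator Per1 was lower (-0.38, 2.24e-13, all by the exact binomial test). The list's median log2 ratio was -0.00093, and with edgeR's common dispersion 0 of the 19 were called.

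Of 20 other early effector genes, 2 were higher and 2 lower, against 4.69% and 4.08% of all genes, with a median of -0.04. Plk2, a kinase of the synapse, was the highest at 101.73 and 101.57 TPM and was not called. Homer1, a postsynaptic scaffold counted here over all its isoforms, had 57.47 and 63.76 TPM and was higher in replicate 2 (0.15, adjusted p 0.00013 by the exact binomial test). Dusp6 was higher as well (0.30). The matrix protein gene Ccn2 had 282 and 120 counts and was lower (-1.12), and Zfp36, which encodes a protein that speeds decay of AU-rich RNAs, had 90 and 46 counts and was lower (-0.85). Ccn2 was the gene of this list also called with edgeR's common dispersion, against 0.967% of all genes.

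The late response genes follow the early wave and encode secreted and synaptic proteins. Of 14, 6 were called higher and 0 lower, against 4.69% and 4.08% of all genes, with a median log2 ratio of 0.17. Every one of the 14 had a positive log2 ratio. Rasgrp1 had 106.7 and 125.28 TPM (0.21) and Vgf, a secreted neuropeptide precursor, 113.27 and 112.46 TPM. Nrn1 (0.20) and Gpr3 (0.61) were among those called. With edgeR's common dispersion 0 of the 14 were called. Excitatory neuron markers moved beside them, with 2 of 6 called higher and 4 of 6 positive.

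The 24 upstream signalling genes were kinases, calcineurin subunits and the CREB, SRF and MEF2 regulators. Of them 4 were called higher and 0 lower, against 4.69% and 4.08% of all genes, and the median log2 ratio was 0.00. Ppp3ca, a catalytic subunit of calcineurin, had 357.04 and 382.77 TPM and was called, at 0.09 on 25553 and 25216 counts. Its paralog Ppp3cb had 187.26 and 182.53 TPM and was not called. Mef2d (0.18) and Map2k1 (0.12) were higher in replicate 2. Of 8 heat shock genes 3 were higher, Hspa8 (0.06, on 34912 and 33602 counts), Hsph1 (0.17) and Hspa5 (0.29). Hsp90aa1, at 459.05 and 460.99 TPM, was not called, and the inducible pair Hspa1a and Hspa1b, near-identical copies whose reads may be divided arbitrarily, was not called either. With edgeR's common dispersion 0 of the upstream and 0 of the heat shock genes were called. Of 8 glucocorticoid response genes 0 were higher and 6 lower, against 4.69% and 4.08% of all genes, with a median of -0.32. Tsc22d3 had 34.26 and 25.40 TPM (-0.46) and Nfkbia 19.29 and 12.09 TPM (-0.63), while Sgk1, at 28.86 and 28.39 TPM, was not called. With edgeR's common dispersion Nfkbia alone of this list was called. Per1 and Sgk1 each stand on 2 of the lists.

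**Figure D4:**
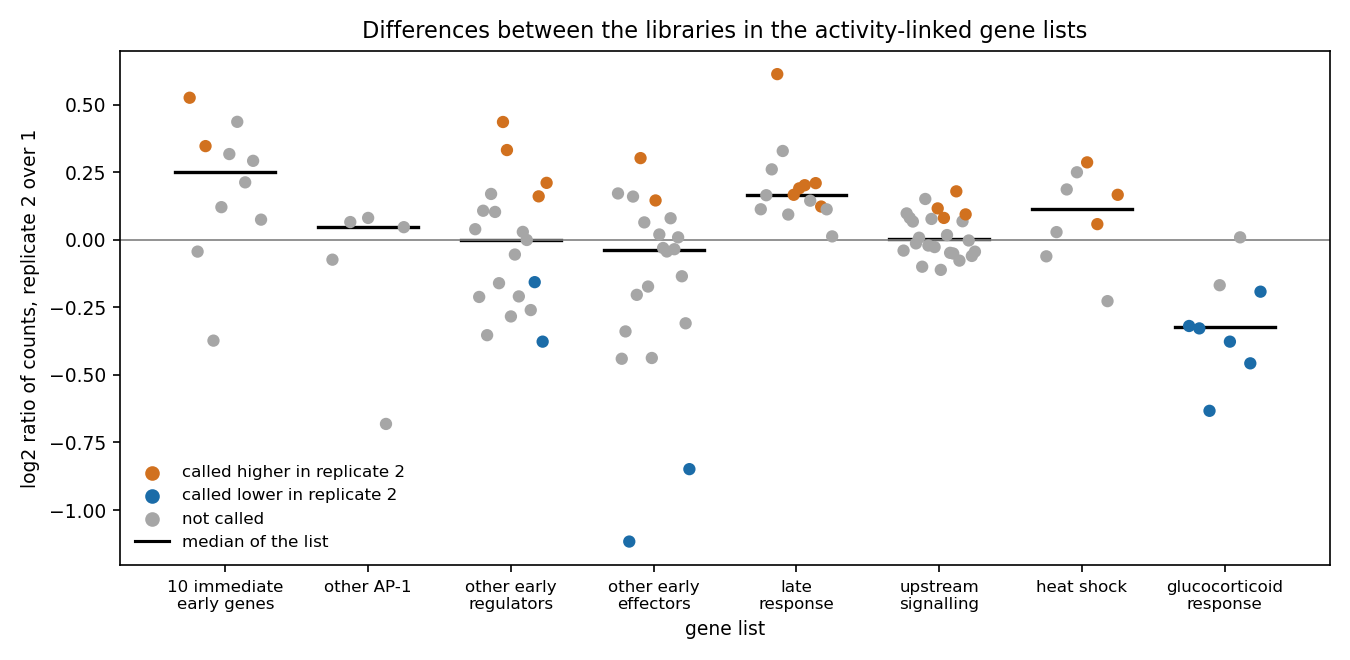
Log2 ratio of counts, replicate 2 over replicate 1 (vertical axis), of each tested gene in 8 lists (horizontal axis), coloured by the call of the exact binomial test, with a black bar at the list's median. The medians are 0.25 for the 10 immediate early genes, 0.17 for the late response genes and -0.32 for the glucocorticoid response genes.

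Isoforms were read over 41 annotated transcripts, and in 9 of 10 members the same transcript led in both libraries and both routes. Nr4a1 was the exception. Alignments gave 430 and 322 counts to Nr4a1-201 and 161 and 256 to Nr4a1-202, while the FASTQ route gave 592 and 569 to Nr4a1-202 and next to none to Nr4a1-201. Both have the same 1803 coding bases and differ in the first exons, so the promoter in use cannot be read from these tables. The Nr4a1 window printed above belongs to Nr4a1-201. Egr1-202 held 86.0% and 88.4% of the TPM of Egr1 by alignments and 78.6% and 81.8% from the FASTQ file. The spliced lengths of the 2 Arc transcripts are 3055 and 3054 bases with 5 genomic bases that differ, so their division is uncertain.

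Fosb makes a short form, ΔFosB, when an intron inside its last coding exon is spliced out. The truncated protein lacks the C-terminal activation domain and is known for its long life in neurons. The intron spans 140 bases on the minus strand of mm10, chr7:19305007-19305146, and is shown because the isoform split turns on it, with its first and last bases, the GT and AG that splicing uses, in capitals.
Fosb intron: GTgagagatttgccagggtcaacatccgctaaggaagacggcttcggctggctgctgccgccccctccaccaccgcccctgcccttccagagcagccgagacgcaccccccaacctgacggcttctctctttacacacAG
With it kept, Fosb-201 encodes 338 codons, and without it Fosb-206 has 237. Transcripts with the intron removed had 1.76 and 7.90 expected counts from alignments, against 59.4 and 71.1 for coding transcripts that keep it. From the FASTQ file the values were 3.78 and 6.01 against 57.9 and 81.9. As a share of the coding TPM of Fosb, the spliced form took 9.64% and 29.2% by alignments and 23.3% and 25.5% from the FASTQ file. All of it was assigned to Fosb-206, annotated at 1090 bases, while the spliced Fosb-207, at 3523 bases, had 0 counts by both routes. TPM divides by length, so the short Fosb-206 weighs more in this share than in the counts. The form that keeps the intron had more counts in both libraries and both routes. The spliced form rests on fewer than 8 counts, and its difference between the libraries was not tested.

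Transcripts annotated as retaining an intron, which can be unspliced or nuclear RNA in total RNA libraries, were present for 5 members. Their share of the gene's TPM by alignments was 34.6% and 35.6% for Egr3, 23.4% and 14% for Dusp1, 18.2% and 11% for Npas4, 8.79% and 4.86% for Fosb and 5.90% and 3.10% for Nr4a1. The median over 7604 coding genes with such transcripts was 11.3% and 10.6%, so Egr3, Dusp1 and Npas4 stood above it and Fosb and Nr4a1 below it in both libraries, Npas4 by little in replicate 2. From the FASTQ file Egr3 was lower, at 20.8% and 20.8%, and Dusp1 had 26.0% and 13.3%. Most of the Egr3 transcript is exonic elsewhere. Of the 3876 bases of Egr3-202, 221 lie outside the exons of coding transcripts, while 2461 of the 3629 bases of Fosb-204 do. The counts behind the Dusp1 share were 46.3 and 22.6.

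**Figure D5:**
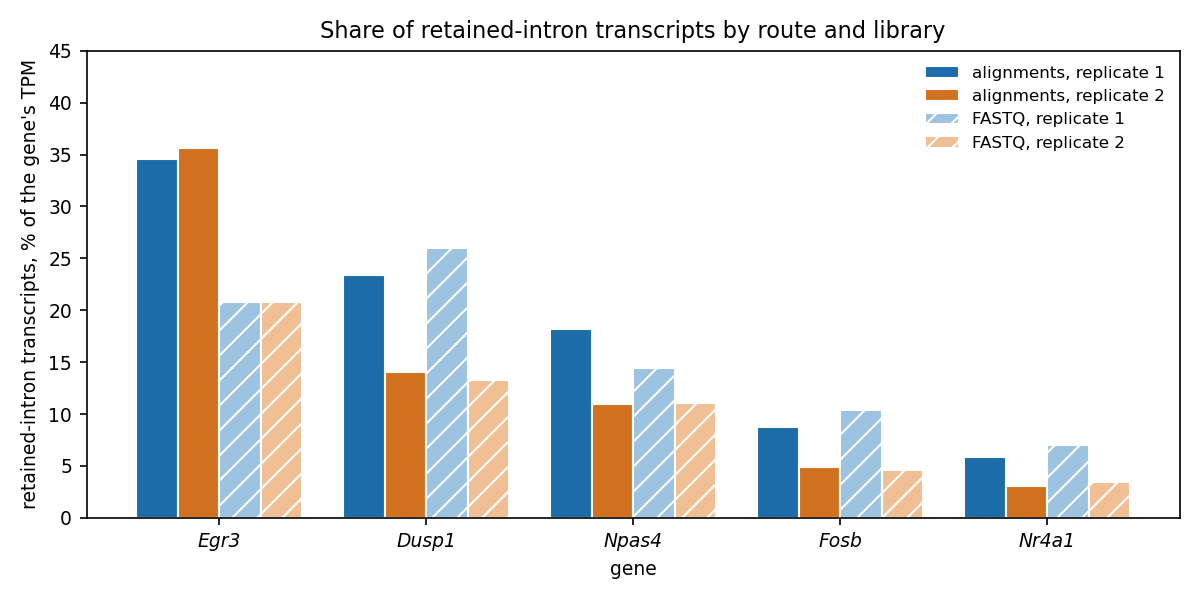
Share of each gene's TPM in retained-intron transcripts (vertical axis, percent) for 5 genes (horizontal axis), by library (colour) and by quantification route (plain or hatched bars). Egr3 is highest by alignments at 34.6% and 35.6%, and its FASTQ-based bars are at 20.8%.

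The transcripts of Npas4 were divided between coding and other annotated forms. The coding transcript Npas4-201 held 41.6% and 75.9% of its TPM by alignments and 62.1% and 80.3% from the FASTQ file. It had 68 and 127.8 expected counts, against 44.0 and 14.9 for Npas4-203, which is annotated as a target of nonsense-mediated decay, and 31.0 and 19.3 for the retained-intron transcript Npas4-202. The coding share was higher in replicate 2 by both routes, on few counts and with no test.

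Reads of 2 members may be shared with a gene on the other strand. Junb overlaps Prdx2 (4727 and 4188 counts) over 351 bases, and Dusp1 overlaps Ergic1 (3475 and 3294 counts) over 640 bases. These bases are counted over the spans of the genes, and where in each gene they lie is not given here. Junb-201 held all counts of Junb, and Junb-202 had 0 in both libraries and both routes. Dusp1-201 and Dusp1-205, which reach far upstream of the leading Dusp1-202, had at most 3.48 counts in a library. No source used here says whether counting used strand, and the values of Junb and Dusp1 are uncertain to that extent.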

How the data were processed

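Gene and transcript tables were derived by the authors from transcriptome alignments to mm10 with GENCODE M21 and deposited with expected counts, which are not normalized, and TPM, per the labels and the file headers. Estimated counts and TPM made by the authors from the FASTQ file were deposited in another transcript table, per the labels. No source used here names the tools. All 55536 annotated genes matched. The 96 ERCC rows, and 26249 rows named only by a number or phiX (3.12e-05% and 2e-05% of counts), were left out of tests. FASTQ-based transcripts were summed per gene, and 86 genes had no such row.

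Expected counts were rounded, and for each gene averaging 10 or more counts the 2 libraries were tested against each other with an exact binomial test (two-sided), given library sizes scaled by TMM in edgeR 4.0.16 (R 4.3.3). P-values were adjusted by Benjamini-Hochberg and called under 0.05. A prior count of 0.5 entered the log2 ratios, and intervals are 95% Clopper-Pearson for ratios and Poisson for levels. No molecular identifiers are described, so the intervals cover counting error only, and p-values measure the spread of reads, which may be technical. Alternatives were DESeq2 1.42.0 size factors, total and ERCC scaling, a mean count of at least 100, no minimum, a prior count of 2, FASTQ-based counts and edgeR's exact test with common and trended dispersion estimated without a group term (biological coefficient of variation 0.0688). On simulated data with counting noise only, the test called 84% of genes raised 1.5-fold, 84% raised 2-fold, 100% raised 4-fold, 71.43% lowered to 0.5-fold and 37 of 18298 unchanged ones.

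Promoter windows came from RefSeq (GRCm38.p6). The members and lists were chosen with earlier results of these data known. Named beside the members were, for each pathway list, the 2 highest genes and up to 3 called ones with the largest ratios. Further genes of the members' families were named as well. The 2 genes nearest in level were named for the highest and the lowest member. Cyr61, Ctgf, Mkl1 and Mkl2 are older names of listed genes. Software was Python 3.11.15 with numpy 2.4.6, pandas 2.3.3, scipy 1.17.1 and, for plots, matplotlib 3.10.9. The 2 alleles were not separated.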

Additional observations from a re-analysis of the deposited data

How the results depend on the processing

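The 10 log2 ratios kept their direction and their call under DESeq2 size factors, total count scaling, ERCC scaling, no count minimum and a prior count of 2, as did the 8 that a mean count of at least 100 left to test (Egr2 and Fosb fell under it). From FASTQ-based counts 9 of 10 did, and Dusp1 turned from -0.04 to 0.0374. The count of members called higher in replicate 2 went from 2 to 0 with edgeR's common dispersion and to 1 with the trended one; allowing for spread beyond counting is what these tests add. Over all 18512 genes the calls went from 1624 in both directions to 179 and 166. Across settings the log2 ratio of Arc stayed between 0.515 and 0.525, and that of Egr1 between 0.336 and 0.365. The median level went from 9.51 to 20.6 TPM when rescaled to nuclear protein-coding genes and to 13.5 TPM from the FASTQ file, and lay between 8.48 and 10.1 TPM with either library left out. The median log2 ratio of FASTQ-based to alignment-based TPM went from 0.52 to 0.407 with a pseudocount of 1. No paired analysis was possible because the libraries form 1 group. Depth limits Fosb, Egr2, Npas4 and Fos, which had at most 166 counts in a library.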
